A study of Mus musculus with 6 samples.

Results

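Fibroblast growth factors (FGFs) are secreted ligands that signal through receptor tyrosine kinases, and 7 ligand genes and 3 receptor genes of this family are described here in mouse fibroblasts with and without extra Fbxl10. The members were fixed as a list of gene names: Fgf2, Fgf5, Fgf7, Fgf9, Fgf10, Fgf18, Fgf21, Fgfr1, Fgfr2 and Fgfr3. For each one the array probe set that names a single gene was used, and where a gene has more than 1, that with the highest mean over all arrays. All 10 were measured, each by 1 probe set, among 19936 genes in all.

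The cells are a stable line derived from mouse embryonic fibroblasts (MEFs) that carries the Tet-off system, in which a tetracycline-controlled activator drives a transgene. The control group is 3 RNA samples of this line without transfection. The HA-Fbxl10 group is 3 RNA samples of the same Tet-off line after transfection with an HA-tagged Fbxl10 cDNA and a plasmid for hygromycin resistance, followed by selection of clones that express the tagged protein. The labels do not say how many clones gave these samples, or whether tetracycline was present in either group. No group carried the resistance plasmid alone, so transfection, selection and Fbxl10 itself cannot be told apart for any difference below. The samples of a group are called independent, but separate cultures are not named. The p-values therefore only set a difference against the spread among these samples, and that spread may be technical.

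Most FGF ligands act on neighbouring cells, bind heparan sulfate chains at the cell surface and bring receptors together in pairs. The receptors then recruit adaptor proteins and switch on the RAS-ERK kinase cascade, which induces ETS transcription factors of the Etv group as well as inhibitors that dampen the signal. In connective tissue, fibroblasts supply ligands such as Fgf7 and Fgf10 to epithelia, whose receptor form is a splice variant of Fgfr2, while fibroblasts themselves mainly carry the mesenchymal splice variants. A subgroup of FGFs, which includes Fgf21, circulates as hormones and needs a Klotho protein as co-receptor.

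Fbxl10, now named Kdm2b, is a histone demethylase that binds unmethylated CG dinucleotides through a zinc finger. For this reason the bases upstream of Fgf9, Fgf21 and Fgfr2, 3 of the 4 members that differed between the groups (the other is Fgfr1), are shown with every CG in capitals. They are the 250 bases before the transcription start in RefSeq's GRCm38.p6 annotation, written 5′ to 3′ on the strand of the gene. Fgf9 lies on the plus strand (chr14:58072436-58072685), and Fgf21 (chr7:45615491-45615740) and Fgfr2 (chr7:130266809-130267058) lie on the minus strand.
Fgf9: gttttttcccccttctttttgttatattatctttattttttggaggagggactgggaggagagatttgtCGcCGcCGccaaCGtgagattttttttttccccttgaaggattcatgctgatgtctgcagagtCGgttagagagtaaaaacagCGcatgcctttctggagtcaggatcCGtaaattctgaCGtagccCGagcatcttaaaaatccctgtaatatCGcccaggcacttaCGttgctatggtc
Fgf21: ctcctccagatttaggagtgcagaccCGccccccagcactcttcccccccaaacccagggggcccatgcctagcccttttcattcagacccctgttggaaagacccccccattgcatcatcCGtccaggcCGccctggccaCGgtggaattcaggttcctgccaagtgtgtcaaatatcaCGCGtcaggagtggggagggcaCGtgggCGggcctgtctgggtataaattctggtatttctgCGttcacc
Fgfr2: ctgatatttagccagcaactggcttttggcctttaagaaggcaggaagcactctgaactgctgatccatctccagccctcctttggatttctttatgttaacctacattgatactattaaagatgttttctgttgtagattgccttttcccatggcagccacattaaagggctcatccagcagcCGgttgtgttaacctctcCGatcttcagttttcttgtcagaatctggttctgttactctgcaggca

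The window of Fgf9 holds 11 CG dinucleotides (CG reads the same on both strands), and 35.6% of all 32851 RefSeq windows of this length hold at least as many. Fgf21 has 9 of them, a number met or passed by 40.3% of windows. The 1 start that the table gives for Fgfr2 has 2, which 81.2% of windows reach. Most other members had more. Fgf18 has 37 (reached by 2.20% of windows), Fgf5 has 24 (12.0%), Fgf2 has 20 (17.9%) and the 2 starts of Fgfr3 have 19 and 24. Fgf10 has 8 and Fgf7 has 6, which is also the median over all windows. Of the 9 members compared, which leave out Fgfr1, the 3 shown were not those with the most CG. These counts describe the letters of the windows only, and no binding or methylation was measured.

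Expression values are the authors' log2 values from RMA, which corrects background, makes the arrays' distributions alike and summarises the probes of a set. Array medians over probe sets ran from 4.69 to 4.79, and arrays correlated at 0.994 to 0.996 within groups and 0.990 to 0.992 between them. Kdm2b was higher by 2.33 ± 0.08 (SE) on the log2 scale in the HA-Fbxl10 arrays (limma adjusted p = 3.31e-07), as the labels state. Over all genes, 21.1% passed an adjusted p of 0.05, 10.5% as higher and 10.6% as lower (2097 and 2111 genes). Subtracting each array's median made that split 2650 and 1560 by raising all differences by about 0.05 (median of all genes 0.0505 in place of -0.0043). Of 14 fibroblast markers, 11 lay above the median level of all genes (5.36), Vim, Col1a1 and Col1a2 among them. Thy1 and Dcn lay below that median, and Lum (2.83 in control, 2.80 in HA-Fbxl10 arrays) lay below the lower quartile of 3.75. The markers Col3a1, S100a4, Prrx1 and Pdgfra fell by 0.79, 0.64, 0.49 and 0.30. In these bulk samples, fewer cells of a type and less RNA per cell cannot be told apart.

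In the HA-Fbxl10 cells the ligand gene Fgf9 rose 3.47-fold, the receptor genes Fgfr1 and Fgfr2 rose 1.23-fold and 1.22-fold, and the hormone gene Fgf21 fell 1.55-fold. The other 6 members did not pass the test, and their differences were at most 0.15 in size on the log2 scale. Thus 3 of 10 members were higher and 1 was lower, against 10.5% and 10.6% of all genes. The 2 groups of arrays did not overlap for 6 members, against 36.0% of all genes. The median difference of the members was -0.02, close to that of all genes (-0.0043), and its sign turned with quantile normalization (0.02), with subtraction of array medians (0.03) and with removal of the running median of neighbouring genes (0.01). The members lie on 8 chromosomes, with Fgf5 and Fgfr3 on chromosome 5, and Fgf21 and Fgfr2 on chromosome 7.

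**Figure D1:**
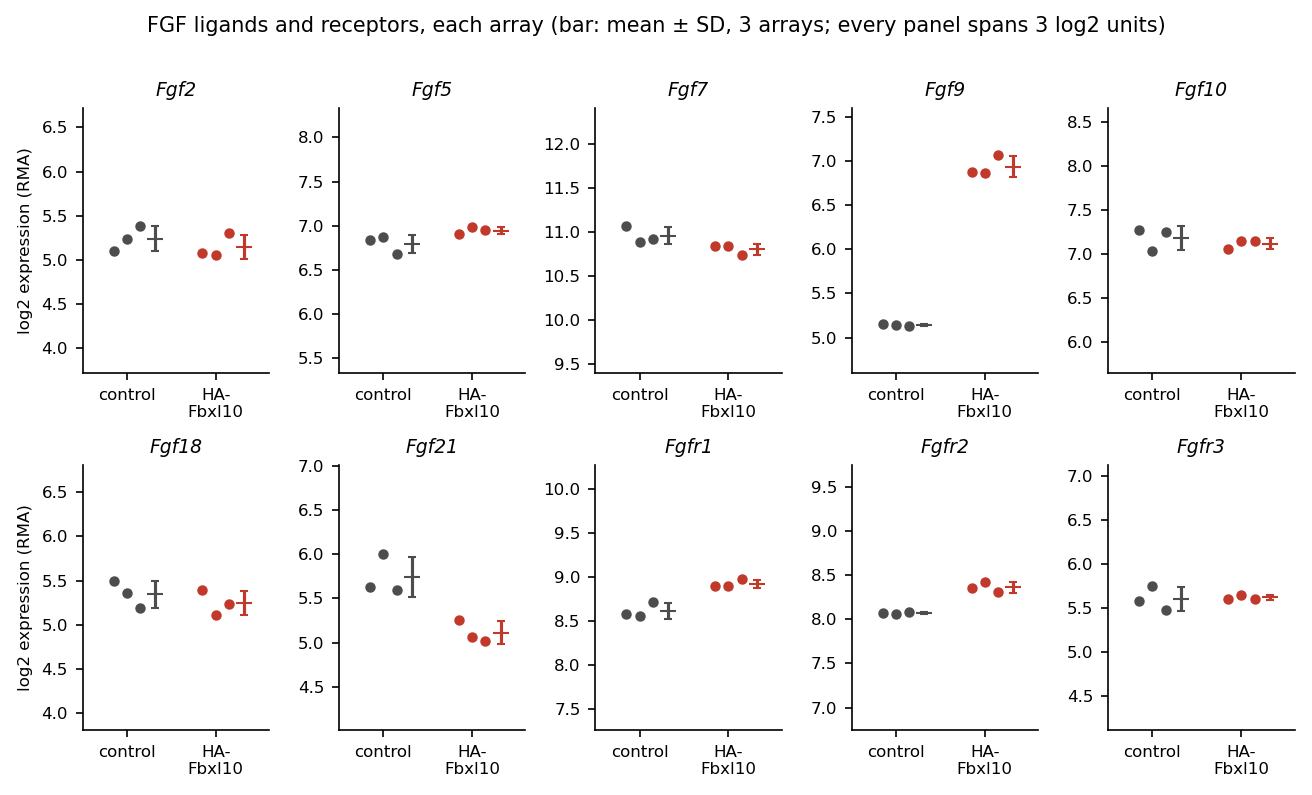
Log2 expression (RMA) of the 10 FGF ligand and receptor genes in each control array (grey) and HA-Fbxl10 array (red), with the mean ± SD of 3 arrays beside the points. Fgf9 stands well above its control values in all HA-Fbxl10 arrays (6.86 to 7.07 against 5.13 to 5.16), Fgf21 lies below, and Fgfr1 and Fgfr2 lie slightly above.

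Fgf9 is a ligand that prefers the mesenchymal forms of the receptors and is known for its roles in testis and lung development. Its log2 level was 5.16, 5.15 and 5.13 in the control arrays and 6.88, 6.86 and 7.07 in the HA-Fbxl10 arrays. The control arrays were nearly equal, and the groups stood 1.71 apart at their closest. The difference was 1.80 ± 0.07 (SE), with a limma adjusted p of 8.61e-07. Of all genes tested, 12 had a larger rise. In control cells it was dimmer than the median gene (5.36), where these values separate signal from background poorly, so the size of the rise is less certain than its direction. Fgf9 kept its call under all 15 other settings, with differences from 1.66 to 1.85. The 3 genes whose values followed those of Fgf9 most closely over the 6 arrays, by Pearson correlation, were Armcx4, Npy1r and Mfge8 (r of 0.999 for each). With 6 arrays in 2 groups such a correlation mainly reflects the step between the groups, and their differences were 1.82, 1.20 and 0.38.

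Fgf21, an endocrine regulator of metabolism made mainly in liver and under cell stress, ran the other way. Its log2 level was 5.63, 6.0 and 5.60 in control arrays and 5.26, 5.06 and 5.02 in HA-Fbxl10 arrays. Every HA-Fbxl10 value was below every control value, with control replicate 2 highest of all. The fall was -0.63 ± 0.11 (SE, limma adjusted p = 0.00379), and it was -0.50 without control replicate 2 (0.0215 as the highest adjusted p without any 1 array). The level in HA-Fbxl10 cells (5.11 ± 0.13, SD, n = 3) was also dimmer than the median gene, so the true fold may differ from the measured one. Klb, the Klotho protein that Fgf21 requires, was at 3.70 ± 0.15 in control and 3.66 ± 0.06 in HA-Fbxl10 cells (SD, n = 3 each). The mean level of Klb lay below the lower quartile of genes.

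The ligands of the epithelial receptor form, Fgf7 and Fgf10, did not pass the test. Fgf7, the keratinocyte growth factor, had log2 levels of 11.07, 10.89 and 10.92 in control arrays and 10.84, 10.85 and 10.74 in HA-Fbxl10 arrays. The groups did not overlap but lay only 0.04 apart. Its difference was -0.15 with a 95% confidence interval of -0.32 to 0.01 (limma adjusted p = 0.189), and a variance model with an intensity trend and robust estimation gave an adjusted p of 0.0355. Fgf10, which directs budding of lung and limb, had 7.27, 7.03 and 7.24 in control arrays against 7.05, 7.15 and 7.15. These ranges overlapped, and the interval of the difference ran from -0.24 to 0.12.

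The ligands Fgf2, Fgf5 and Fgf18 also missed the threshold. Fgf5, a regulator of the hair cycle, was at 6.83, 6.87 and 6.68 in control arrays and at 6.90, 6.98 and 6.95 in HA-Fbxl10 arrays. The 2 groups did not overlap but lay only 0.03 apart, and the difference of 0.15 had an interval of -0.01 to 0.31 (limma adjusted p = 0.189). Fgf2, the basic FGF used widely as a mitogen in culture, ranged from 5.10 to 5.38 in control and from 5.05 to 5.31 in HA-Fbxl10 arrays. Its interval of -0.31 to 0.12 leaves a change of either sign possible. An RNA transcribed antisense to the Fgf2 locus, Fgf2os, has a probe set of its own and lay below the lower quartile of genes in both groups (3.25 and 3.30). Fgf18, a ligand of skeletal growth, ranged from 5.19 to 5.50 in control and from 5.11 to 5.39 in HA-Fbxl10 arrays, with an interval of -0.32 to 0.12. Fgf2 and Fgf18 were both slightly dimmer than the median gene.

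**Figure D2:**
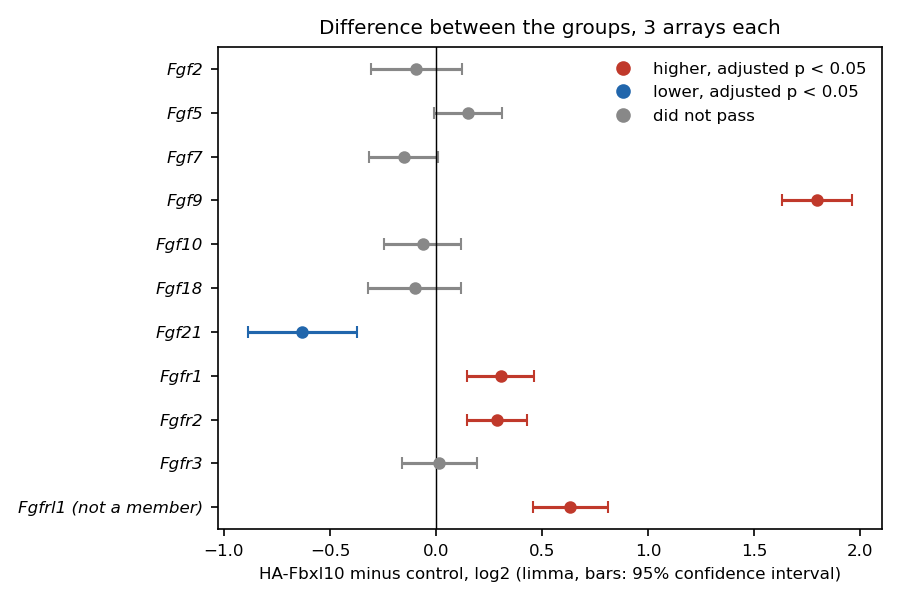
Difference in log2 expression, HA-Fbxl10 minus control, for the 10 members and for Fgfrl1, with 95% confidence intervals from limma. The interval of Fgf9 runs from 1.63 to 1.96, those of Fgfr1 and Fgfr2 lie above 0, that of Fgf21 lies below 0, and those of the other 6 members include 0.

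Fgfr1 and Fgfr2 encode receptors of the cell surface, and a single probe set per gene does not separate their epithelial and mesenchymal splice forms. Fgfr1 had log2 levels of 8.58, 8.55 and 8.72 in control arrays and 8.90, 8.90 and 8.98 in HA-Fbxl10 arrays. All HA-Fbxl10 values were higher, by 0.17 at the closest. The rise was 0.30 ± 0.07 (SE, limma adjusted p = 0.0123). Without HA-Fbxl10 replicate 3 the adjusted p was 0.0524. Genes beside Fgfr1 on chromosome 8 were also higher, and the running median of 31 neighbouring expressed genes differed by 0.19 between the groups. After this median was removed, Fgfr1 differed by 0.12 with an adjusted p of 0.262.

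Fgfr2 was at 8.08, 8.06 and 8.09 in control arrays, a spread of 0.01 (SD), and at 8.36, 8.43 and 8.31 in HA-Fbxl10 arrays. The groups were 0.22 apart at their closest. Its rise of 0.29 ± 0.06 (SE) had a limma adjusted p of 0.00982, and 0.27 was left after removal of the neighbours' median, which itself differed by 0.01. Esrp1 and Esrp2, splicing factors that set the epithelial form of Fgfr2, had log2 levels of 3.35 and 4.42 in control and 3.32 and 4.37 in HA-Fbxl10 cells. Both were dimmer than the median gene, and Esrp1 lay below the lower quartile.

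Fgfr3, a receptor known as a brake on bone growth, did not pass the test. Control arrays gave 5.58, 5.75 and 5.48, and HA-Fbxl10 arrays gave 5.60, 5.65 and 5.60, well inside the control range. The difference was 0.01, with an interval of -0.16 to 0.19.

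Beyond the 10 members, 13 other ligand and receptor genes of the family were measured. Of these, limma called 1 higher and 0 lower, against 10.5% and 10.6% of all genes. At an unadjusted p under 0.05, for which no share over all genes was counted, there was 1 lower gene, Fgf6 (-0.18). The gene that rose was Fgfrl1, a receptor-like protein that binds FGFs but lacks the kinase. Its log2 level was 7.55, 7.64 and 7.45 in control arrays and 8.17, 8.29 and 8.09 in HA-Fbxl10 arrays. No values overlapped, and the rise of 0.63 ± 0.08 (SE, limma adjusted p = 0.000492) stayed at 0.46 with the neighbours' median removed. The median difference of these 13 genes was -0.0013. Only Fgfrl1 and Fgf8 among them were brighter than the median gene. Fgfr4, the remaining kinase receptor, was at 4.38 and 4.41. The 4 intracellular homologues Fgf11, Fgf12, Fgf13 and Fgf14 bind sodium channels rather than receptors. They gave 0 calls by limma, against 21.1% of all genes called in either direction, and 0 at an unadjusted p under 0.05. All 4 were dimmer than the median gene.

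Of 19 co-receptors and FGF carriers, 7 rose, 3 fell and 9 did not pass, against 10.5% higher and 10.6% lower over all genes, and the list median was 0.04. N-cadherin (Cdh2), an adhesion protein known to bind and stabilise Fgfr1, rose from 9.43 ± 0.07 to 10.83 ± 0.04 (SD, n = 3 each), which is 1.40 ± 0.07 (SE) higher with a limma adjusted p of 2.11e-06. The heparan sulfate proteoglycan genes went both ways. Glypican Gpc4 rose by 0.68 and syndecan Sdc1 rose by 0.41, while Sdc4 fell by 0.44. Neuropilin Nrp1 (0.65), the FGF receptor partner Flrt3 (0.49), the carrier Fgfbp3 (0.31) and Ncam1 (0.25) also rose, and Gpc6 (-0.23) and Flrt2 (-0.22) also fell. The calls of Ncam1, Gpc6 and Flrt2 each ended when any of 5 of the 6 arrays was left out, with adjusted p up to 0.117, 0.104 and 0.122. Removal of the neighbours' median also ended the calls of Ncam1 (0.04) and Gpc6 (-0.16).

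Heparan sulfate itself is built and trimmed by enzymes of which 12 were measured, with 5 higher, 1 lower and a list median of -0.03, against 10.5% higher and 10.6% lower over all genes. The extracellular sulfatases, which remove the 6-O-sulfates that FGF signalling uses, moved in opposite directions. Sulf1 was at 7.68, 7.56 and 7.81 in control arrays and 8.38, 8.53 and 8.12 in HA-Fbxl10 arrays, a rise of 0.66 ± 0.11 (SE). Sulf2 was at 6.86, 6.46 and 6.92 in control arrays and 5.76, 5.60 and 5.62 in HA-Fbxl10 arrays, a fall of -1.09 ± 0.12 (SE). Neither gene's groups overlapped, and the limma adjusted p-values were 0.00241 and 0.000234. Hs6st2, which adds 6-O-sulfates, rose by 0.66, and the chain polymerases Ext1 and Ext2 rose by 0.49 and 0.26. Ndst2, an N-sulfating enzyme, rose by 0.47, and its call ended after removal of the neighbours' median (0.28, adjusted p = 0.0555). The same removal added Extl3 (-0.44), Hs3st1 (-0.42) and Glce (-0.25) to the lower genes, which made 4.

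Of 19 genes listed as receptor-proximal adaptors and RAS-ERK kinases, 5 rose, 5 fell and 9 did not pass, with a median of 0.07. The list also holds Pik3r1, Akt1, Stat3 and Rps6ka3, which do not lie between receptor and ERK. Over all genes 10.5% were higher and 10.6% lower. The split depended on the scaling, with 8 higher and 4 lower when array medians were subtracted. Pik3r1, the regulatory subunit of PI3-kinase, rose by 0.56, the docking protein gene Gab1 rose by 0.42 and the phosphatase gene Ptpn11 rose by 0.33. Shc1, an adaptor gene, fell by 0.58. The 2 MEK genes diverged, with Map2k1 higher by 0.30 and Map2k2 lower by 0.41. Sos1 (0.31) rose, and Araf (-0.38), Stat3 (-0.36) and Braf (-0.30) fell. After removal of the neighbours' median only Pik3r1 and Araf of these 10 genes kept their calls, while Nras (0.20 before, 0.32 after) gained one. Leaving out single arrays ended the calls of Sos1 (3 arrays, adjusted p up to 0.082) and Braf (5 arrays, up to 0.16).

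**Figure D3:**
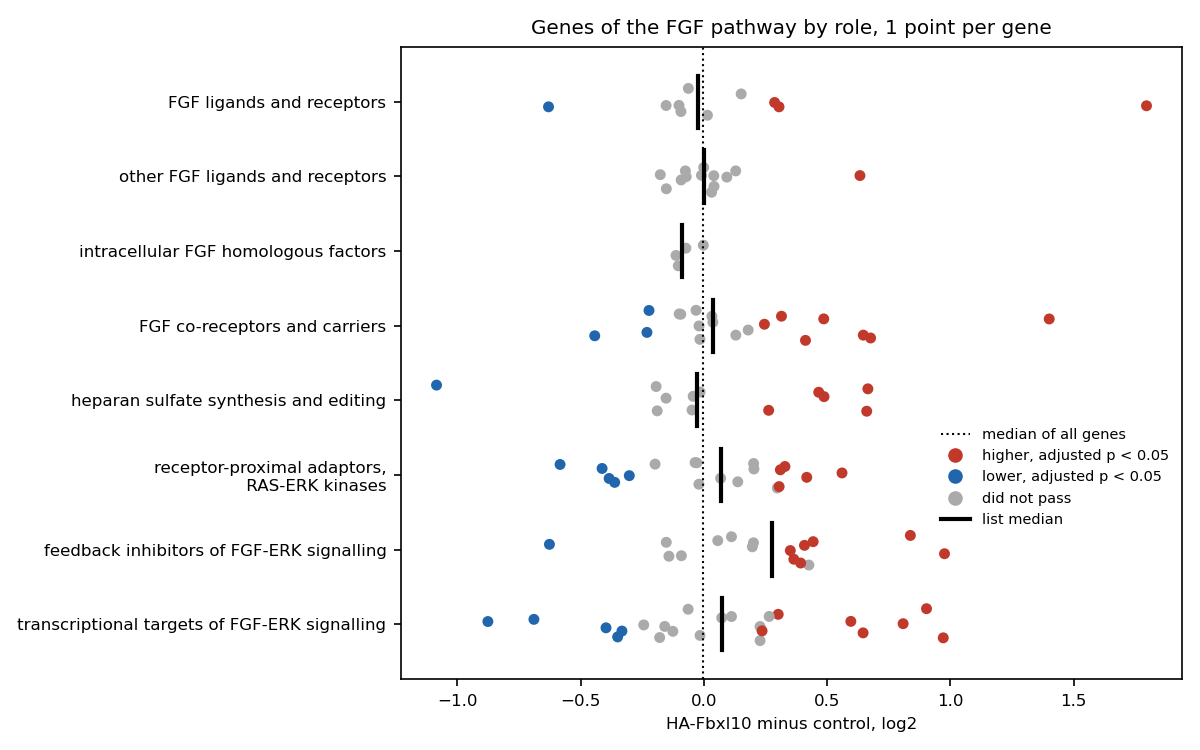
Difference in log2 expression, HA-Fbxl10 minus control, for each measured gene of the FGF pathway, grouped by role, with the list median as a black bar and the median of all genes as a dotted line. The feedback inhibitors have a median of 0.28, with 7 of 16 genes higher, while the other lists have medians between -0.09 and 0.07.

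Feedback inhibitors of FGF-ERK signalling had the highest median of these lists at 0.28, against -0.0043 for all genes. Of 16 measured, 7 rose, 1 fell and 8 did not pass, against 10.5% higher and 10.6% lower over all genes. Dusp6, the ERK phosphatase that follows FGF signalling in many embryonic tissues, was at 7.64, 7.62 and 7.67 in control arrays and 8.53, 8.55 and 8.36 in HA-Fbxl10 arrays. That is a rise of 0.84 ± 0.07 (SE, limma adjusted p = 6.4e-05) with the groups clearly separate. The phosphatase gene Dusp1 rose by 0.98, the RAS GTPase activator gene Rasa1 by 0.44, Dusp14 by 0.41, Dusp4 by 0.39 and Dusp7 by 0.36. Of the Sprouty genes, Spry4 rose by 0.35 and Spry1, Spry2 and Spry3 had differences of -0.09, 0.11 and 0.20 that did not pass. Dusp5, a nuclear ERK phosphatase gene, fell by 0.63. The list median was 0.22 to 0.35 over all settings. Removal of the neighbours' median ended the calls of Rasa1 (0.19), Dusp4 (0.22) and Dusp7 (0.25), and the call of Dusp7 also ended without any of 3 arrays (control replicate 2, HA-Fbxl10 replicate 1 or 3). That removal also put Spred2 (0.43 before, 0.51 after) past the threshold as higher and Il17rd (-0.14 before, -0.33 after) as lower. Spred2, a RAS-ERK inhibitor gene, had missed the threshold with a limma adjusted p of 0.0586. It also passed with quantile normalization, array medians subtracted, the dimmest 30% of genes left out, an intensity trend, array weights or the replicate block. Without control replicate 3 (7.85, against 7.31 and 7.28 in the other control arrays) its limma adjusted p was 0.0011. The remaining settings left it short of the threshold.

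Among 23 transcriptional targets of FGF-ERK signalling, 7 rose, 5 fell and 11 did not pass, against 10.5% higher and 10.6% lower over all genes, with a median of 0.07. The 3 ETS factors of the Etv group were all higher. Etv4 was at 6.44, 6.40 and 6.36 in control arrays and 7.09, 7.01 and 7.03 in HA-Fbxl10 arrays, a rise of 0.65 ± 0.06 (SE, limma adjusted p = 0.000124). Etv1 rose by 0.97 ± 0.16, with HA-Fbxl10 replicate 2 the highest (4.92, 5.64 and 5.08 against 4.08 to 4.38 in control). Its mean level (4.73) was dimmer than the median gene, so the size of this rise is less certain. Etv5 rose by 0.30. It missed the threshold when control replicate 1, control replicate 2 or HA-Fbxl10 replicate 3 was left out (adjusted p up to 0.069) and after removal of the neighbours' median (0.14). Averaging the 2 probe sets of Etv5 also ended its call (0.29, limma adjusted p = 0.0734). Cited1 (0.90), Ier3 (0.81), the cyclin gene Ccnd1 (0.60) and Srf (0.24) rose as well. Srf lost its call without any of 5 arrays (adjusted p up to 0.116).

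The same list holds immediate early genes, a class that ERK induces quickly and briefly, which were picked out after their values were seen and went both ways. Ier3 rose (above), and Myc and Fosl1 had differences of 0.23 and 0.11 that did not pass. Egr1 was at 7.60, 7.49 and 7.69 in control arrays and 6.64, 6.65 and 6.86 in HA-Fbxl10 arrays, a fall of -0.88 ± 0.08 (SE, limma adjusted p = 0.000114). The groups were far apart on this gene. Ier2 fell by 0.40 and Junb by 0.35, and Junb lost its call without control replicate 2 or HA-Fbxl10 replicate 1 (adjusted p of 0.0568 and 0.0553). Fos, Fosb, Egr2 and Egr3 had differences of -0.24, -0.02, -0.18 and -0.16 that did not pass. Id3 and Hmga2, list genes not counted in this class here, fell by 0.69 and 0.33.

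**Figure D4:**
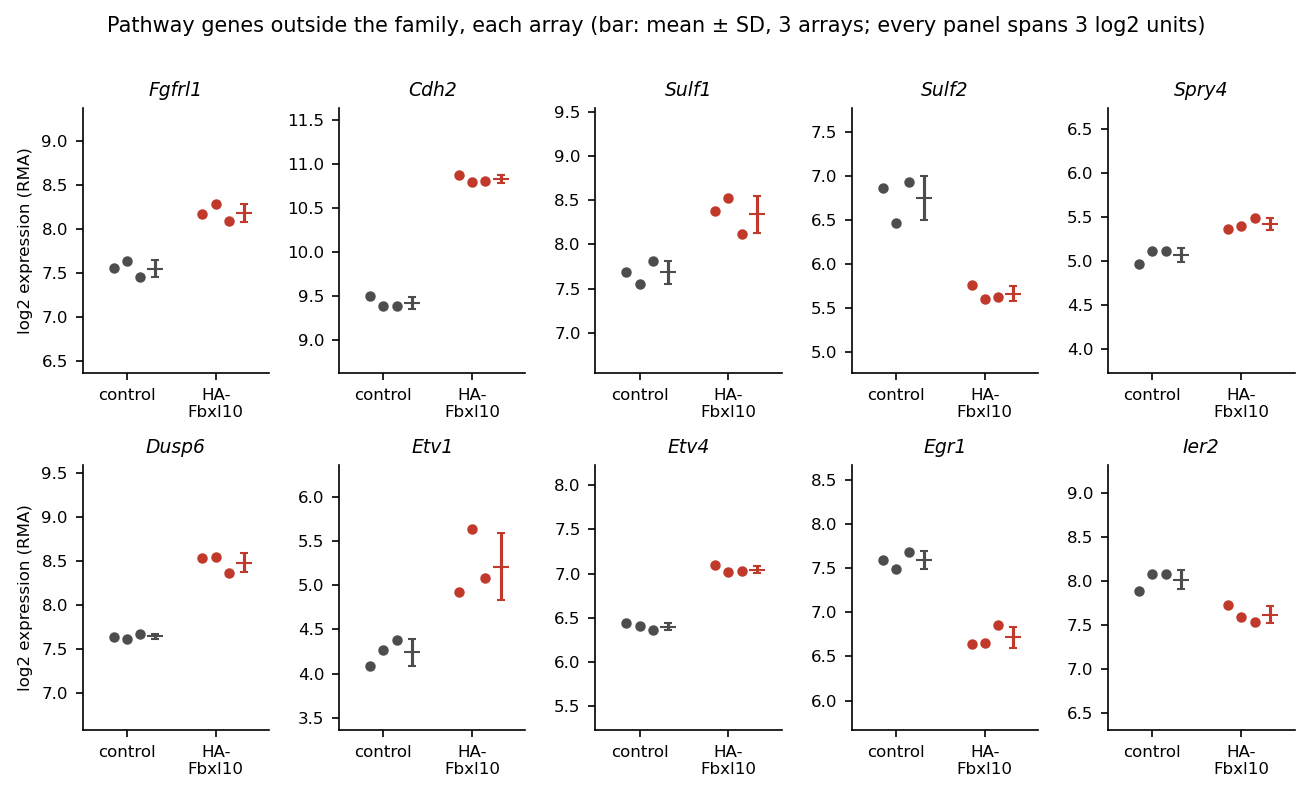
Log2 expression (RMA) of 10 pathway genes outside the 10 members in each control array (grey) and HA-Fbxl10 array (red), with the mean ± SD of 3 arrays. Fgfrl1, Cdh2, Sulf1, Spry4, Dusp6, Etv1 and Etv4 are higher and Sulf2, Egr1 and Ier2 are lower in every HA-Fbxl10 array than in any control array. All 10 were picked from genes that passed the test, and the groups did not overlap for 36.0% of all genes.

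Markers of cell types in which these genes have known roles were at mostly low levels. Of 12 epithelial markers 3 lay above the median of all genes (Krt8, Krt19 and Cldn4), while Cdh1 was at 4.82 and 4.80 and Epcam at 3.26 in both groups. Krt19 was an exception, brighter than 91.5% of genes, and rose by 0.71 from 9.07 to 9.79 (limma adjusted p = 0.000385). The mean log2 level over the list was 4.86 to 4.90 in control and 4.84 to 4.98 in HA-Fbxl10 arrays. Of 10 endothelial markers 1 lay above the median, Flt1, which rose by 1.62, and Kdr rose by 0.51. The other 8 did not pass, and the median difference of this list was -0.02. Over this list the mean level was 4.26 to 4.37 in control and 4.46 to 4.49 in HA-Fbxl10 arrays, with Pecam1 below the lower quartile. Macrophage markers had 2 of 10 above the median (Cd68 and Cd14, which fell by 0.45), with mean levels of 3.96 to 4.01 and 3.93 to 3.94. None of the 6 hepatocyte markers measured lay above it, and their mean levels were 3.75 to 3.95 and 3.86 to 3.98. The part of these markers in the FGF results was not tested.

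**Figure D5:**
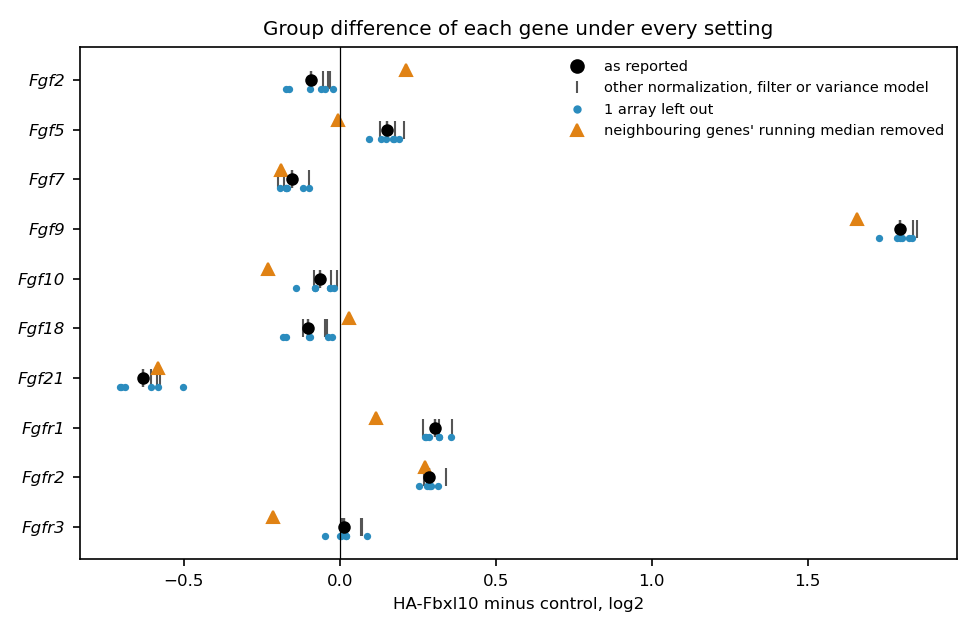
Difference in log2 expression, HA-Fbxl10 minus control, of each member as reported (black), under other settings (grey ticks), without 1 array (blue) and with the running median of 31 neighbouring genes removed (orange). Fgf9 stays between 1.66 and 1.85 and Fgf21 between -0.71 and -0.50, while Fgfr1 drops to 0.12 and Fgf2, Fgf5, Fgf18 and Fgfr3 cross 0 with the neighbours' median removed.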

How the data were processed

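Total RNA (300 ng per array, per the labels' protocols) of 6 samples was labelled with biotin and hybridised to Affymetrix arrays. The authors deposited log2 expression values for each probe set, which the submitters' processing notes attribute to RMA without a version. The table holds 35556 probe sets. The platform annotation names a single gene for 21789 and several for 1621, and the other 12146 have no name here. Symbols were updated by Entrez identifier (21698) or accession (3) to RefSeq's table for GRCm38.p6, while 88 stayed as annotated. Taking the highest-mean probe set of a gene left 19936 genes. These were fitted with limma 3.58.1 in R 4.3.3 (lmFit, eBayes, two-sided, Benjamini-Hochberg over all genes, threshold 0.05), as HA-Fbxl10 minus control. Low values are compressed by RMA and no detection calls were used, so a level is set only against the quartiles of all genes. Levels of different probe sets were not compared. The table names no scan dates or batches.

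The members, the 7 other pathway lists and the 5 marker lists were chosen with earlier results of these data known. Of the genes on these lists, 10 were not analysed here. Named were all members, Kdm2b, the list genes past the threshold with the largest changes first, and the 3 genes most correlated with the member of lowest adjusted p. Other list genes, given for their level or as members of a named group that did not pass, were named after their values were seen. Promoter windows came from RefSeq (9 of 10 members matched). Where windows of opposite strands overlapped, all 1843 pairs were reverse complements. For the alternative with neighbouring genes, deviations from each gene's mean were corrected by the median of 31 expressed genes (above the median level) around it in gene order. In a simulation of the HA-Fbxl10 comparison with 19936 genes, log2 differences of 0.5, 1 and 2 were set in 67, 67 and 66 genes above the median level. The test recovered 71.6%, 98.5% and 100% of them. Far fewer genes were changed there than passed in the real data, so these rates may not carry over, and no difference below 0.5 was tried. Of 184 calls there, 4 were false. Figures used matplotlib 3.10.9.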

Additional observations from a re-analysis of the deposited data

How the results depend on the processing

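Fgf9, Fgf21, Fgfr2 and Fgf10 kept direction and side of the threshold under all 15 other settings. Fgfr1 (0.30) missed an adjusted p of 0.01 (0.0123) and lost its call with the neighbours' running median removed (0.12), and it ran from 0.27 to 0.36 without single arrays. Fgf7 (-0.15) passed with an intensity trend and robust estimation. With the neighbours' median removed, differences that had not passed changed sign for Fgf2 (0.21), Fgf5 (-0.0052), Fgf18 (0.029) and Fgfr3 (-0.21), and Fgfr3 ran from -0.049 to 0.088 without single arrays. Over all genes, an adjusted p of 0.01 left 1227 higher and 1309 lower. The lower co-receptor genes went from 3 to 1 with that threshold, with array medians subtracted and with the replicate block, and ran from 1 to 3 without single arrays. At 0.01, 3 adaptors or kinases and 3 target genes were lower. Array weights gave 1 lower gene among the other ligands and receptors. Subtracting array medians gave 8 higher adaptors and kinases. The neighbours' median left 2 higher and 1 lower there, and took the lower feedback inhibitors from 1 to 2, heparan sulfate genes from 1 to 4, and intracellular factors and other ligands from 0 to 1 each. Why these counts moved was not tested. The replicate numbers are shared by the groups, but nothing in the labels says that they pair the samples. The deviations of same-numbered arrays correlated at 0.09, -0.28 and -0.09, and not every array correlated best with its own number. With 3 arrays per group, these correlations cannot decide whether the samples were paired. With the replicate block 1667 genes were higher and 1730 lower, and no member changed its call. Without detection calls, values of genes dimmer than the median gene are the least certain. Among the members these are Fgf2, Fgf18, Fgf9 in control cells and Fgf21 in HA-Fbxl10 cells. The called list genes Etv1, Dusp4, Spry4, Flrt3 and Kdr share this limit, with mean levels of 4.73, 4.44, 5.24, 5.23 and 3.95.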
